A study of Mus musculus with 884 samples.

Results

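This account covers the autosomal replication programme of mouse cells in the middle of S phase on day 2 of differentiation (d2), set against the same line before differentiation (d0). S-phase cells belonged to it when 40 to 70% of their called autosomal bins had replicated, a percentage called the replication score below. There were 94 such cells among the 884 single cells of the series, 35 at d2 and 59 at d0. The series followed single cells over 7 days of differentiation and in epiblast stem cells (EpiSCs), by sequencing the amplified genome of each cell and calling 80 kb bins as replicated or not.

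The d2 cells were CBMS1 cells turned for 2 days into epiblast-like cells (EpiLCs), a culture stage that stands for the epiblast around implantation. The d0 cells were undifferentiated CBMS1 embryonic stem cells, a female line from a CBA/MsM hybrid, kept in 2i/LIF medium that holds stem cells in the naive state. Both days therefore came from the same line, and no separate cultures were named for either. Each day was treated as 1 sample, cells were not taken as replicates, no test was run, and a difference was called by its size only. Intervals are 95% exact (Clopper-Pearson) binomial intervals over cells, which cover counting error alone.

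Chromosomes replicate as domains that start at characteristic times in S phase. Early domains are on the whole gene-rich, transcribed and located in the nuclear interior (the A compartment), and late domains are gene-poor and near the nuclear lamina (the B compartment). Replication timing is reorganised when pluripotent cells leave the naive state, and in a single mid-S cell an early domain has been copied and a late one has not, so the share of mid-S cells that have copied a bin is a measure of how early it replicates. Regions are named below by position, in the mm9 build, because genes could not be placed on them: the gene table used here has coordinates of another build.

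Cells were paired across days by score, within 3 percentage points, giving 35 pairs with a median gap of 0.823 and a largest gap of 2.96 points. The mean score was 52.3% in the matched d2 cells and 53.2% in the matched d0 cells. Calls were present in 29402 to 29735 bins per d2 cell and in 26813 to 29774 bins per d0 cell, and no 2 cells of a day had identical calls. All d2 cells were new to this series, whereas 50 of the 59 d0 cells in the window and 30 of the 35 matched ones had been deposited in an earlier series. Mappability had been corrected by the authors with merged G1 controls, 2 for the d2 cells (12 and 23 cells) and 4 for the d0 cells, none of which served both days, so control and day cannot be told apart. Calls of 3 d0 cells did not follow the mean d0 profile (area under the curve, for ranking its bins, under 0.8). All 3 were of the present series, from 1 sorting gate and 1 control. Their values were 0.468, 0.337 and 0.418, lower than a random order of bins would give, against at least 0.925 in every d2 cell. Of these 3 cells 2 were in the matched set. The authors' filters had marked 2 matched d0 cells, both of the present series, and these were kept.

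Most bins were replicated in similar shares of the matched mid-S cells on both days. Bins copied before or after the window on both days would show no difference. For these bins the shares cannot show that timing was the same. Of 29698 bins called in at least 50% of each group, 10668 were replicated in at least 80% of the d2 cells and of the d0 cells, 8460 were replicated in at most 20% of both, and 67.3% of bins differed by less than 10 points. A bin was called earlier at d2 when the share of d2 cells that had replicated it exceeded the d0 share by 30 points or more, and later at d2 when it was lower by as much. By this rule 777 bins (2.62% of those compared, 62.2 Mb) were earlier at d2, with a mean share of 67% in d2 cells and 25.3% in d0 cells. Another 1331 bins (4.48%, 106.48 Mb) were later at d2, with a mean share of 28.6% in d2 cells and 69.8% in d0 cells. With pairs held within 2 points of score, which left 31 pairs and a mean score difference of -0.0308 points, the counts were 920 earlier and 1157 later. That limit also left out 4 pairs, and what part score had in the change was not tested. Leaving out cells that did not follow the mean d0 profile (34 pairs) put 41.7% of the called bins in the earlier direction, against 36.9% with all 35 pairs. Without matching, where the d2 cells were on average 3.98 points less advanced, the counts were 456 earlier and 2073 later.

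These counts have to be read beside differences among cells of the same day. When the d2 cells of 1 control were paired with those of the other (11 pairs), 5.71% of bins were higher and 4.96% lower by 30 points or more. Between the 2 largest controls of d0 (14 pairs) the same shares were 1.72% and 1.84%. With 11 and 14 pairs counting error is larger than with 35, so these shares cannot be set directly against 2.62% and 4.48%, but single bins past the rule occurred within a day too. Runs of adjacent bins, which are built from the same calls, and measurements in other cells follow. Neither tells day apart from control.

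Bins of intermediate timing at d0 changed most often. Of the 2460 bins replicated in 60 to 80% of d0 cells, 18.5% were later at d2, as were 14% of the 2413 bins at 40 to 60% and 3.97% of the 12246 bins at 80% or more. Of the 3234 bins at 20 to 40% in d0 cells, 8.19% were earlier at d2, against 3.53% of the 9345 bins under 20%. A full switch was rare: 33 bins were replicated in at least 80% of d2 cells and at most 20% of d0 cells, and 25 bins had the opposite pattern. These classes use the same d0 calls as the rule, and the share of bins free to move 30 points differs between them, so they are a description.

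The direction differed between chromosomes. Chromosome 13 had the highest share of bins earlier at d2, 8.03% of 1457, beside 46 (3.16%) later. Chromosome 10 had 73 of 1587 bins earlier (4.6%), and chromosome 19 had 27 of 726 earlier (3.72%) and 8 later (1.10%). Chromosome 17 lay at the other end, with 7 of 1147 bins earlier (0.610%) and 92 later (8.02%), followed by chromosome 15 with 87 of 1256 bins later (6.93%).

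Joined bins formed domains of up to 1680 kb. Runs of at least 5 adjacent called bins, 400 kb or more, numbered 59 for bins earlier at d2 and 86 for bins later at d2, and held 54.2% and 46.7% of the called bins of each kind. The median length was 480 kb in both directions, and the longest runs measured 1360 kb (earlier) and 1680 kb (later). Runs no more than 2 bins apart were joined, which left 59 earlier and 84 later regions. The DNA beside them was classed by the matched d0 cells. Of the earlier regions, 38 of the 59 earlier regions had late DNA on both sides at d0 (under 50% of cells replicated over the 5 flanking bins), 17 had 1 early flank, and 4 had early DNA on both sides. Of the 84 later regions, 14 had late DNA on both sides, 46 lay between an early and a late flank, 23 had early flanks on both sides, and 1 had a flank without values. These classes use the d0 calls of the rule, which takes earlier regions from bins that are low at d0 and later regions from bins that are high, so they are a description.

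In each direction the 10 regions of largest mean difference are named E1 to E10 (earlier at d2) and L1 to L10 (later at d2), by size of the difference. The last of them, E10 and L10, differed by 51.4 and -53.1 points, and the first that were not named, on chromosomes 8 and 1, by 51.1 and -52.4 points. A cell counted as having replicated a region when more than 50% of its called bins there were replicated. Choice and measurement used the same matched cells, so the shares that follow describe them and do not test them.

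E1, at chr13:117680001-118240000, had the largest difference of all. It was replicated in 34 of 35 d2 cells (97.1%, interval 85.1 to 99.9%) and in 2 of 35 d0 cells (5.71%, 0.70 to 19.2%). Its flanks stayed late, at 15.4% and 16.6% in d2 cells and 7.43% and 5.14% in d0 cells, so that a peak of 560 kb stood alone in late DNA at d2. E5, at chr1:46640001-47280000, had the same form, replicated in 27 of 35 d2 cells (77.1%, 59.9 to 89.6%) and 5 of 35 d0 cells (14.3%, 4.81 to 30.3%). E4, at chr12:27680001-28240000, was replicated in 30 of 35 d2 cells (85.7%, 69.7 to 95.2%) and 5 of 34 d0 cells (14.7%, 4.95 to 31.1%), again with flanks under 25% on both days.

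E8, E9 and E10 had the smallest differences of the isolated peaks, and the lowest mean shares at d0. E8, at chr10:55760001-56320000, was replicated in 22 of 35 d2 cells (62.9%, 44.9 to 78.5%) and 2 of 35 d0 cells (5.71%, 0.70 to 19.2%). E9, at chr7:77280001-77920000, was replicated in 21 of 35 d2 cells (60%, 42.1 to 76.1%) and 3 of 35 d0 cells (8.57%, 1.80 to 23.1%). E10, at chr9:91120001-91520000, was replicated in 22 of 35 d2 cells (62.9%, 44.9 to 78.5%) and in 1 of 35 d0 cells (2.86%, 0.0723 to 14.9%). All 3 were late domains at d0 that more than 50% of mid-S cells had copied at d2.

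The other 4 earlier regions adjoined DNA that was already replicating in many cells at d0. E2, at chr13:28320001-29200000, was replicated in 30 of 35 d2 cells (85.7%, 69.7 to 95.2%) and 6 of 35 d0 cells (17.1%, 6.56 to 33.6%). Its right flank was replicated in 91.4% of d2 cells and 70.3% of d0 cells and its left flank in 12% and 1.73%, which made it an outward shift of the edge of an early domain over 880 kb. E6, at chr4:69440001-69920000, lay beside a flank at 58.9% in d2 cells and 52.6% in d0 cells, and was replicated in 29 of 35 d2 cells (82.9%, 66.4 to 93.4%) and 8 of 35 d0 cells (22.9%, 10.4 to 40.1%). E3, at chr2:15760001-17120000, was the longest at 1360 kb, with 28 of 35 d2 cells (80%, 63.1 to 91.6%) and 3 of 35 d0 cells (8.57%, 1.80 to 23.1%). E7, at chr15:56160001-56960000, filled a late gap between early domains that lay up to about 1 Mb away, with 26 of 35 d2 cells (74.3%, 56.7 to 87.5%) and 3 of 35 d0 cells (8.57%, 1.80 to 23.1%).

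**Figure D1:**
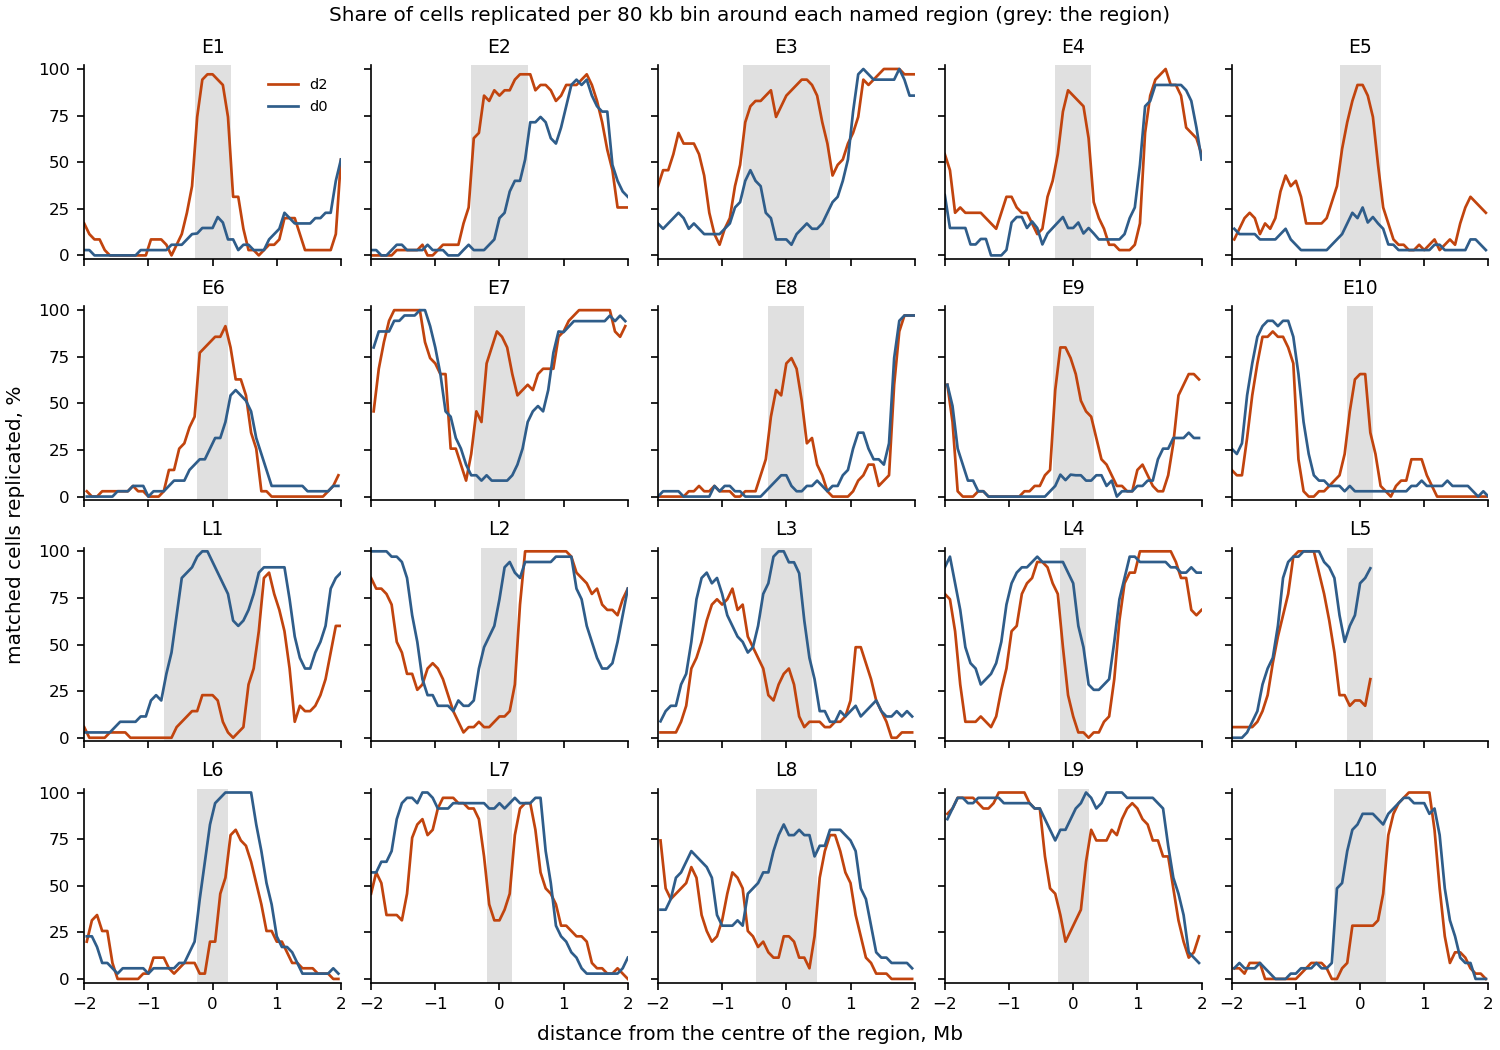
Share of matched cells replicated (vertical axis, %) in each 80 kb bin within 2 Mb of the centre of each named region (horizontal axis, Mb), for 35 d2 cells (orange) and 35 d0 cells (blue); grey marks the region. E1, E5, E8, E9 and E10 appear as isolated peaks of the d2 line, L2, L4, L6 and L10 as the loss of an edge of an early domain, L3 as a peak of the d0 line, and L7 and L9 as dips between early flanks; L5 has no values on its right.

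The size of the E differences depended on which d0 cells were used. In the window, the median over the 10 regions of the mean share was 75.6% in the d2 cells, against 14.3% in the 50 d0 cells of the earlier series and 50.8% in the 9 d0 cells of the present series, or 45.5% in the 6 of these that followed the mean profile. Against these 6 cells, which were not matched in score, 3 of 10 E regions passed the 30-point rule, and 16 of all 59 earlier regions did. Counting error is large with 6 cells, and the share of all bins past the rule was not counted there. All 10 E regions were still higher at d2 with 8 pairs made from present-series d0 cells, by 10 to 57.1 points. What part the series of origin had in the E differences was not tested; the 9 cells include the 3 that did not follow the profile.

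Of the named later regions, L1, at chr15:50080001-51600000, was the longest at 1520 kb. It was replicated in 3 of 35 d2 cells (8.57%, 1.80 to 23.1%) and 30 of 35 d0 cells (85.7%, 69.7 to 95.2%). Its single bins reached 100% of d0 cells and no more than 57.1% of d2 cells, beside a right flank at 75.4% in d2 cells and 91.4% in d0 cells. L2, at chr1:62240001-62800000, was replicated in 4 of 35 d2 cells (11.4%, 3.20 to 26.7%) and 26 of 35 d0 cells (74.3%, 56.7 to 87.5%), and its right flank stayed early at 94.3% in d2 cells and 92.6% in d0 cells. The border of that early domain lay about the length of the region further in at d2.

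L4, L6 and L10 likewise lay between an early and a late flank on both days, while L3 was a separate peak at d0 and L8 had a left flank that was partly replicated. L3, at chr15:66480001-67280000, was replicated in 6 of 35 d2 cells (17.1%, 6.56 to 33.6%) and 32 of 35 d0 cells (91.4%, 76.9 to 98.2%). Its left flank was replicated in 57.1% of d2 cells and 52% of d0 cells and its right flank in 7.43% and 15.4%, with bins inside the region at 100% of d0 cells. L4, at chr4:55600001-56000000, was replicated in 4 of 35 d2 cells (11.4%, 3.20 to 26.7%) and 29 of 35 d0 cells (82.9%, 66.4 to 93.4%). L4 lay at an abrupt border, with flanks at 88% and 5.14% in d2 cells and at 94.9% and 28% in d0 cells. L6, at chr16:84240001-84720000, was replicated in 7 of 35 d2 cells (20%, 8.44 to 36.9%) and 29 of 35 d0 cells (82.9%, 66.4 to 93.4%). L8, at chr6:7120001-8080000, was replicated in 5 of 35 d2 cells (14.3%, 4.81 to 30.3%) and 27 of 35 d0 cells (77.1%, 59.9 to 89.6%), between flanks at 41.7% and 69.1% in d2 cells and 36.6% and 76.6% in d0 cells. In each of these regions the d2 and d0 intervals stood clear of each other, as the choice of the regions required. L10, at chr3:115120001-115920000, was replicated in 7 of 35 d2 cells (20%, 8.44 to 36.9%) and 28 of 35 d0 cells (80%, 63.1 to 91.6%), with a right flank above 90% on both days.

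L7 and L9 were gaps that opened inside early domains. L7, at chr3:9760001-10160000, was replicated in 11 of 35 d2 cells (31.4%, 16.9 to 49.3%) and 33 of 35 d0 cells (94.3%, 80.8 to 99.3%), between flanks at 85.7% and 87.4% in d2 cells. L9, at chr4:99920001-100400000, was replicated in 9 of 35 d2 cells (25.7%, 12.5 to 43.3%) and 30 of 35 d0 cells (85.7%, 69.7 to 95.2%), between flanks at 68.6% and 76.6% in d2 cells. Its d2 count was 3 of 23 cells in the larger control and 6 of 12 in the smaller. L5, at chr8:19520001-19920000, was replicated in 7 of 35 d2 cells (20%, 8.44 to 36.9%) and 29 of 35 d0 cells (82.9%, 66.4 to 93.4%), and the bins to its right had no values, so its right border is unknown.

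The L differences did not depend on the series of the d0 cells in the same way. The median of the mean shares was 22.3% in the d2 cells, against 83.5% in the 50 d0 cells of the earlier series and 84.7% in the 9 of the present series (85.4% in the 6 that followed the profile). Against those 6 cells, 10 of 10 L regions and 77 of all 84 later regions passed the 30-point rule. Here too the share of all bins past the rule was not counted. With the 8 pairs made from present-series d0 cells, 9 of 10 L regions passed it, L5 differed by -97.5 points, and L9 missed the rule at -25 points, against -55.9 and -53.3 points in the 35 pairs. The 2 controls of the d2 cells were also taken 1 at a time. Against matched d0 cells, 20 of the 20 named regions passed the rule with the 23 cells of the larger control and 19 with the 12 of the smaller, where 3.94% and 7.64% of all bins were higher and 5.61% and 6.93% lower by as much. Between cells of the same day, 3 named regions passed it between the d2 controls and 0 between the d0 controls.

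**Figure D2:**
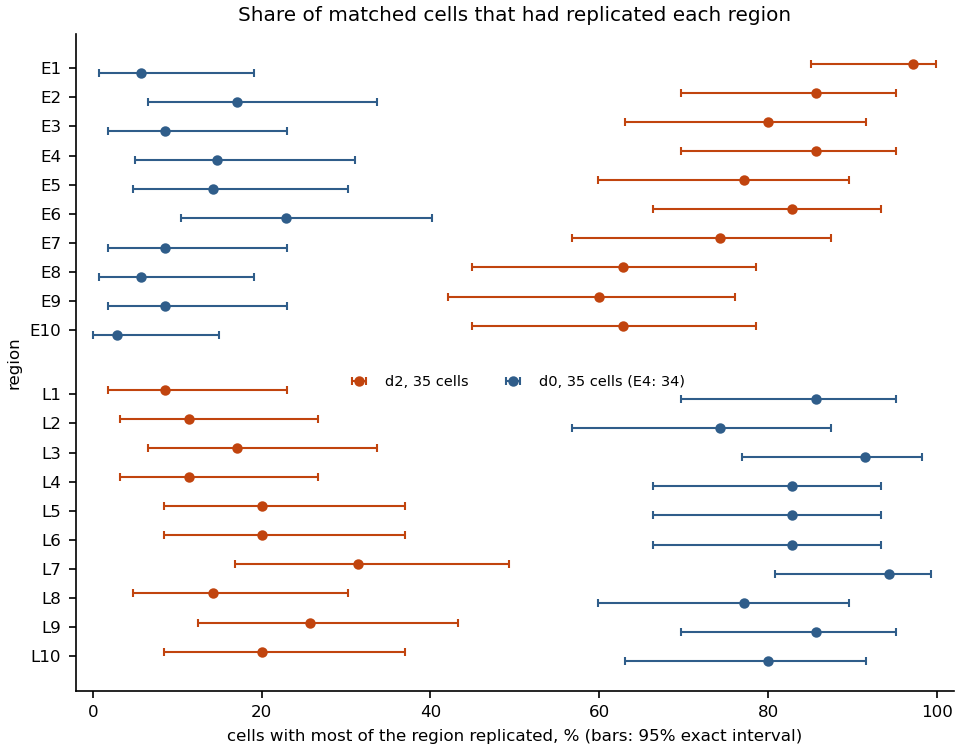
Share of matched cells that had replicated each named region (horizontal axis, %), with 95% exact intervals, for d2 (orange, 35 cells) above d0 (blue, 35 cells, 34 in E4). The E regions were replicated in 60 to 97.1% of d2 cells and 2.86 to 22.9% of d0 cells, the L regions in 8.57 to 31.4% of d2 cells and 74.3 to 94.3% of d0 cells.

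Named regions were also counted within each cell. Of the 10 E regions a d2 cell had replicated 2 to 10 (median 8) and a d0 cell 0 to 5 (median 1). Of the 10 L regions a d2 cell had replicated 0 to 6 (median 1) and a d0 cell 3 to 10 (median 9). The number of E regions minus the number of L regions was 2 to 9 in the d2 cells, above 0 in 35 of 35, and -10 to -3 in the d0 cells, below 0 in 35 of 35. The groups did not overlap, and the regions were chosen on these same cells for their difference between the days. Whether regions varied together among cells of 1 day was not measured. The 24 d0 cells in the window that were not matched took no part in that choice, and had replicated 0 to 8 E regions (median 1) and 7 to 10 L regions (median 9.5) at a mean score of 61%. The 3 d0 cells that did not follow the mean profile had replicated 4, 5 and 8 E regions and 7, 8 and 9 L regions, which is above the matched d0 median for E regions and at or below it for L regions.

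**Figure D3:**
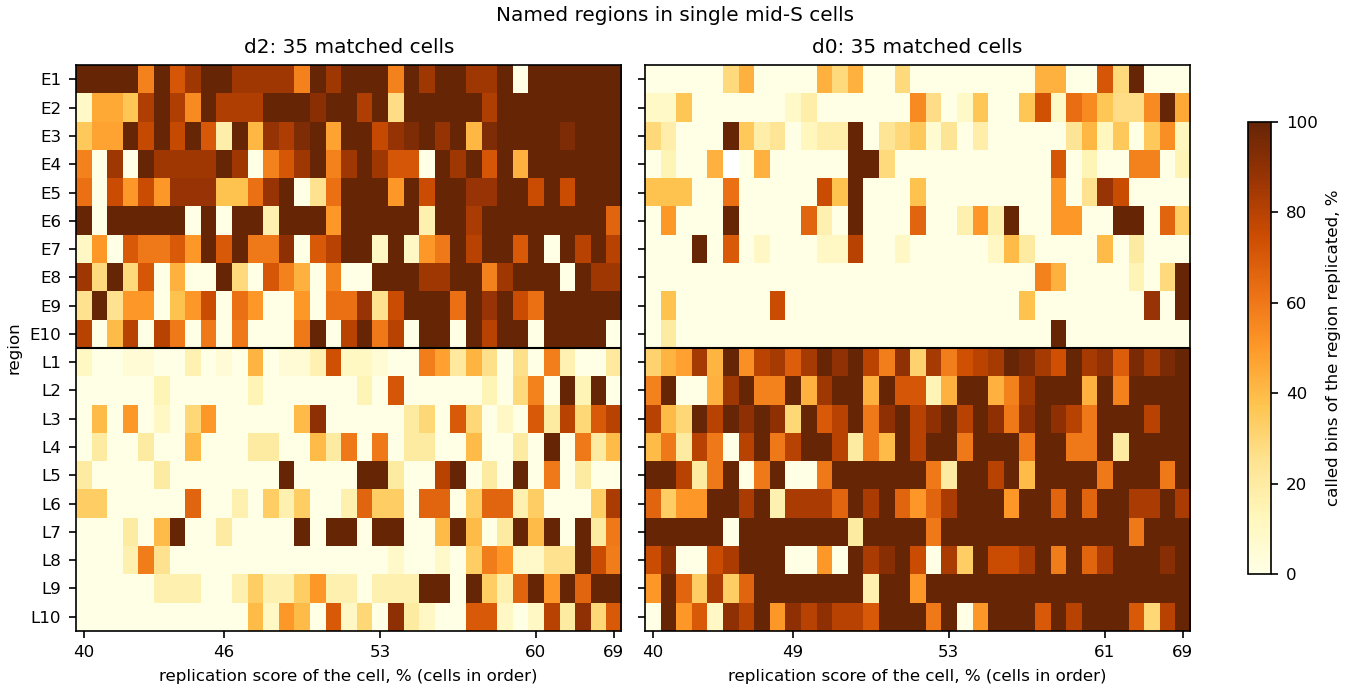
Percent of the called bins of each named region (rows) that were replicated in each matched cell (columns, in order of replication score), for 35 d2 cells on the left and 35 d0 cells on the right; white marks a region with no call. The d2 cells are dark in E1 to E10 and pale in L1 to L10, and the d0 cells the reverse; E2 to E5 fill in as the score of the d2 cells grows, while E1 is dark from the lowest scores.

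Cells outside the window, which took no part in choosing bins or regions, gave a second measurement. These were 27 pairs of cells with scores of 15 to 40% and 25 pairs with scores of 70 to 90%, 40 of their 52 d0 cells from the earlier series. The 59 earlier regions were higher at d2 in 58 and the 84 later regions were lower at d2 in 83, and all 10 E and all 10 L regions kept their direction. At scores of 15 to 40% alone 58 of 59 earlier and 80 of 84 later regions kept it, and at 70 to 90% alone 46 of 59 and 76 of 84 did. In these cells the share rule was passed by 1.22% of all bins for higher and 0.603% for lower. The median difference was 19 points over the earlier regions and -12.8 points over the later ones. Of the called bins, 93.7% of the earlier ones were higher at d2, against 44.6% of all bins compared, and 89.3% of the later ones were lower, against 48.3% of all bins. At scores of 15 to 40% alone, 90.3% of the earlier bins were higher at d2, against 37.3% of all bins. There 71% of the later bins were lower, against 35.5% of all bins. At scores of 70 to 90% alone, 64.4% of the earlier bins were higher at d2, against 24% of all bins, and 76.9% of the later bins were lower, against 32.3% of all bins.

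E1 had the largest difference in these cells too: 40 of 52 d2 cells had replicated it, against 7 of 52 d0 cells. Its bins were replicated on average in 48.1% of d2 cells and 3.17% of d0 cells at scores of 15 to 40%, and in 100% of d2 cells and 26.9% of d0 cells at scores of 70 to 90%. E10 was replicated in 24 of 51 d2 cells and 4 of 52 d0 cells. At the other end E4 was replicated in 27 of 52 d2 cells and 21 of 52 d0 cells, a difference in mean share of 12.4 points, and E6 in 28 of 52 d2 cells and 20 of 52 d0 cells. Among the later regions L1 was replicated in 9 of 51 d2 cells and 26 of 52 d0 cells, and L3 in 14 of 51 d2 cells and 30 of 52 d0 cells. L9 and L5 were nearly level, with differences of -4.81 and -6.69 points, so that outside the window their later timing was hardly seen. On both days their mean shares were at most 15.4% at scores of 15 to 40% and at least 92.8% at 70 to 90%. A change of timing within the window would therefore show little in these cells.

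The direction also held where the d0 cells came from the present series alone, in 21 such pairs. Of the earlier regions 57 of 59 were higher at d2 and of the later regions 77 of 84 were lower. Among all bins compared in these pairs, 38.9% were higher and 43.1% lower at d2 by any amount. The size rule was passed by 2.88% of all bins for higher and 2.29% for lower. E1 was replicated in 20 of 21 d2 cells and 4 of 21 d0 cells, and L1 in 6 of 21 d2 cells and 15 of 21 d0 cells. E6 was almost level in these pairs, replicated in 15 of 21 d2 cells and 14 of 21 d0 cells. Within the range of 15 to 40% (6 pairs), 52 of 59 earlier and 67 of 84 later regions kept their direction, and within 70 to 90% (15 pairs) 48 of 59 and 70 of 84 did. For each range taken apart, the shares of all bins were not counted in these pairs. The named regions that did not keep their direction were E4, with a difference of -21.4 points in 6 pairs at 15 to 40%, and L7 and L9, level in 15 pairs at 70 to 90% (0.0 points).

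A curve over the whole of S phase gave the point at which each region was copied. A logistic curve of replicated against not replicated was fitted on the score of every S-phase cell with a score of 5 to 95%, 262 cells over both days, window cells included. The 10 E regions reached 50% of cells at scores of 25.25 to 49.5% at d2 (median 41.25%) and of 64 to 90.25% at d0 (median 74.5%). The 10 L regions did so at scores of 57.75 to 81% at d2 (median 65%) and of 31.75 to 48% at d0 (median 42.25%). E1 had the largest shift, at a score of 25.25% in d2 cells and 88.75% in d0 cells, which placed it among late DNA at d0 and in early S phase at d2. L3 had the largest shift the other way, at 72.75% in d2 cells and 31.75% in d0 cells. With the 31 present-series d0 cells in place of all d0 cells, all 20 regions kept their direction. The shifts were 14.75 to 66.25 points in the E regions and 13.25 to 41 points in the opposite sense in the L regions. All these curves include window cells on which the regions were chosen, so the directions describe that choice and do not test it.

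**Figure D4:**
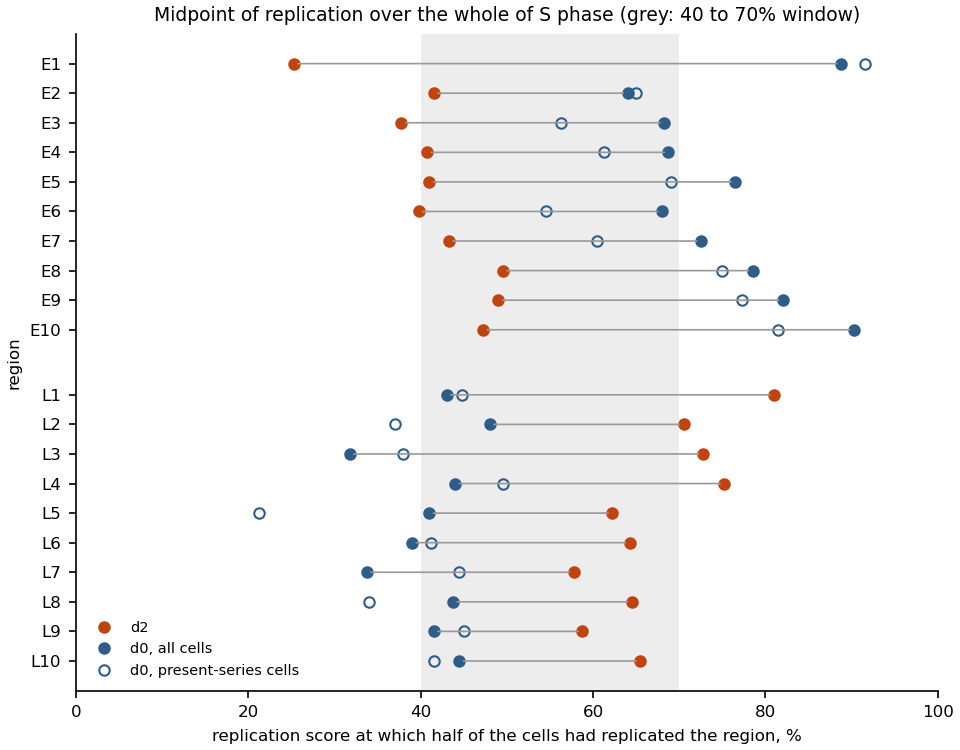
Replication score (horizontal axis, %) at which 50% of cells had replicated each named region, from a logistic curve over S-phase cells, at d2 (orange), at d0 (filled blue) and in d0 cells of the present series alone (open blue); grey marks the 40 to 70% window. In all 10 E regions the d2 point lies to the left of both d0 points, and in all 10 L regions to the right. The curves include window cells on which the regions were chosen.

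Days 3 to 7 and the EpiSCs were not used to choose the regions, and show what became of them. Window cells numbered 13, 18, 20 and 21 on days d3, d4, d5 and d6, and those of d7 made up 34.5% of the 293 window cells of all groups. The 26 EpiSCs were of a female line grown in Activin/FGF. That line is of another strain than CBMS1, so strain and state cannot be told apart in the EpiSC values. Mean scores were 53.4 to 57.1%. Aggregation culture began after d2. The bins earlier at d2 were replicated in 33.2% of all window cells at d0, 67% (d2), 65.1% (d3), 62.4% (d4), 57.3% (d5), 49.7% (d6) and 53.4% (d7), and in 59% (EpiSCs). The bins later at d2 were replicated in 74.6% (d0), 28.6% (d2), 38.6% (d3), 42% (d4), 51% (d5), 51.7% (d6) and 55.8% (d7), and in 53.6% (EpiSCs). Both sets moved back part of the way, while over all bins the shares stayed between 52.4 and 57.3%. A return from values chosen for being extreme is not in itself a change, and its part in the step from d2 to d3 was not tested.

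Some regions kept their d2 timing to d7 and others did not. Of the 59 earlier regions, 25 were at d7 at or beyond their d2 share, 15 were nearer to d2 than to d0, 9 were nearer to d0 and 10 were at or beyond d0. Of the 84 later regions these counts were 12, 23, 24 and 25. The d0 and d2 shares used here are those of the matched cells, at mean scores of 53.2% and 52.3%. The d7 cells were not matched and had a mean score of 56.4%. What part score had in these counts was not tested. Among the named regions E2, E4, E9 and E10 stayed early, L5 and L6 ended later than at d2, and L1, L3 and L8 stayed nearer to d2.

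E9 went furthest among the stable ones. Its mean share was 11.5% (d0), 62.1% (d2), 66.3% (d3), 81.9% (d4), 81.2% (d5), 82% (d6) and 90.3% (d7). E4 had 22.2% (d0), 75.9% (d2) and 88.2% (d7). L6 had 83.9% (d0), 24.3% (d2), 20.5% (d3), 22.2% (d4), 10.8% (d5), 15.9% (d6) and 11.7% (d7), and 5.77% (EpiSCs). These 3 regions kept to d7 the direction they had taken at d2. The labels describe the d7 cells as neurectoderm.

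E3, E5 and E6 were early for a few days only. E3 had a mean share of 28.8% (d0), 82.9% (d2), 79.2% (d3), 65.7% (d4), 18.2% (d5), 8.96% (d6) and 15.4% (d7). E5 had 25.5% (d0), 75.4% (d2), 93.3% (d3), 71.5% (d4), 46.2% (d5), 12.6% (d6) and 15.3% (d7), and 1.92% (EpiSCs). E6 had 29.7% (d0), 83.8% (d2), 83.3% (d3), 79.6% (d4), 51.7% (d5), 22.2% (d6) and 26% (d7). All 3 were back at or below the d0 share by d6, after exceeding it from d2 to d5 in E5 and E6 and from d2 to d4 in E3. That d0 share rests mostly on cells of the earlier series. In the 9 d0 cells of the present series it was 55.6% (E3), 65.3% (E5) and 70.4% (E6). E5 and E6 were already below these values at d5. What part the series of origin had was not tested. E1 followed more slowly, at 17.5% (d0), 89% (d2), 82.4% (d3), 74.6% (d4), 49.3% (d5), 38.4% (d6) and 30.3% (d7).

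Some later regions also reversed. L9 was under 50% at d2 alone, with a mean share of 92.1% (d0), 35.2% (d2), 73.1% (d3), 96.3% (d4), 90% (d5), 87.3% (d6) and 89.7% (d7). By control its d2 share was 23.2% in the 23 cells of the larger and 58.3% in the 12 cells of the smaller. Its value under 50% thus came from the larger control alone. L2 returned step by step, with 74.1% (d0), 12.2% (d2), 26.4% (d3), 35.7% (d4), 38.6% (d5), 70.7% (d6) and 80.5% (d7). L5 was at 77.3% (d0), 21.1% (d2), 75.3% (d3), 12.2% (d4) and 14% (d7), so its 13 d3 cells stood apart from the days on either side. Each day from d3 to d6 rests on 13 to 21 cells corrected with 1 control, so a step at a single day cannot be told apart from its control.

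**Figure D5:**
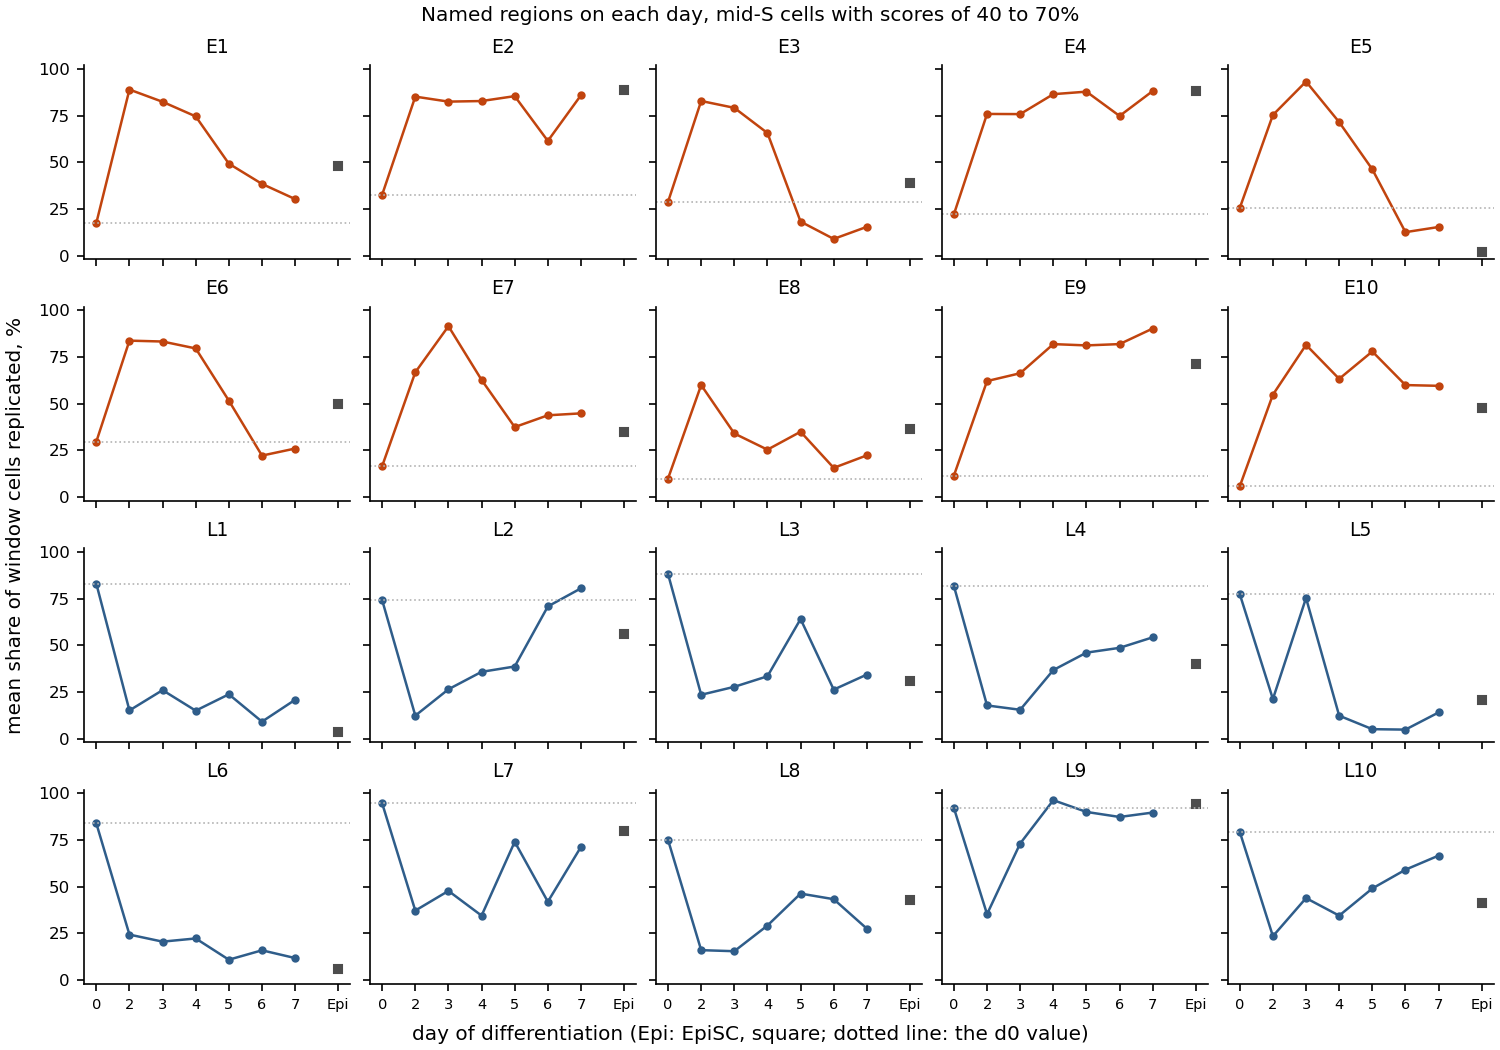
Mean share of window cells replicated (vertical axis, %) in each named region at d0, d2, d3, d4, d5, d6 and d7 (points, in order of day) and in EpiSCs (square); the dotted line marks the d0 share. E2, E4, E9 and E10 stay early after d2, E3, E5 and E6 fall back by d6, L1 and L6 stay late, and L2 and L9 return to the d0 share.

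Chromosome X was measured apart, in 400 kb windows on each parental haplotype, in 27 d2 cells and 33 d0 cells labelled XX, all of the d0 cells from the earlier series. The mean score was 52.6% in these d2 cells and 57.9% in the d0 cells. On the CBA haplotype 6 of 322 windows (1.86%) were earlier and 24 (7.45%) later at d2, and on the MsM haplotype 10 of 325 (3.08%) were earlier and 33 (10.2%) later. In 23 pairs matched in score the counts were 20 earlier (6.21%) and 20 later (6.21%) on CBA and 15 earlier (4.62%) and 24 later (7.38%) on MsM. The matching also left out 4 of the d2 cells and 10 of the d0 cells, and what part score had in the change on CBA was not tested. The window at chrX:10000001-10400000 was earlier on both haplotypes. On CBA it was replicated in 22 of 27 d2 cells (81.5%, 61.9 to 93.7%) and 5 of 33 d0 cells (15.2%, 5.11 to 31.9%). On MsM it was replicated in 24 of 27 d2 cells (88.9%, 70.8 to 97.6%) and 11 of 33 d0 cells (33.3%, 18 to 51.8%).

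Other X windows differed between the haplotypes in size, and some in direction. Of 317 windows compared on both, 1 was called earlier on both, of 5 on CBA and 10 on MsM. Later calls met in 7, of 24 on CBA and 31 on MsM. The other haplotype had the same sign in 5 of the 5 (CBA) and 7 of the 10 (MsM) earlier windows. For later ones this was 19 of 24 and 23 of 31. In the 23 matched pairs 7 earlier and 6 later windows were called on both. The window at chrX:5600001-6000000 had on MsM the largest gain, with 24 of 27 d2 cells (88.9%, 70.8 to 97.6%) and 4 of 33 d0 cells (12.1%, 3.40 to 28.2%), while on CBA it was replicated in 11 of 27 d2 cells and 5 of 33 d0 cells. The window at chrX:140800001-141200000 had on MsM the largest loss, with 6 of 27 d2 cells (22.2%, 8.62 to 42.3%) and 32 of 33 d0 cells (97%, 84.2 to 99.9%), beside 16 of 27 d2 cells and 27 of 33 d0 cells on CBA. The window at chrX:66000001-66400000 was late on both at d2, with 3 of 27 d2 cells and 22 of 33 d0 cells on CBA and 2 of 27 d2 cells and 16 of 33 d0 cells on MsM. Within a cell the haplotypes remained close: the gap between their shares of replicated windows had a median of 4.45 points (0.123 to 16.3) in d2 cells and 2.64 points (0.135 to 13.1) in d0 cells. It reached 10 points in 7 of 27 d2 cells and 2 of 33 d0 cells, and CBA was ahead in 14 of the d2 cells and 13 of the d0 cells.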

How the data were processed

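Single cells were sorted, their genomes amplified with SeqPlex and sequenced as single reads, per the labels' protocols. Cutadapt, BWA 0.7.10-r789 and Picard, with the mm9 build, are named in the submitters' processing notes; their settings, and how calls were smoothed, are not given in the sources used. What the authors deposited, per the file headers, are calls for 30890 bins of 80 kb on 19 autosomes, where 1 means replicated, -1 unreplicated and 0 a missing value, and for 400 kb windows of chromosome X by haplotype. The deposited replication score is a fraction, printed here as a percentage. Read depth is unknown here, and the number of bins called stands in for it.

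Groups came from the titles. Each d2 cell was paired with 1 d0 cell by the assignment with the smallest total score difference, at most 3 points. Shares were taken over cells with a call, in bins called in at least 50% of each group. The members, the rules for bins (0.3) and regions (5 bins), and the lists were chosen with earlier results of these data known. Named regions were the 10 of largest mean difference in each direction, and named X windows the 4 largest per haplotype and direction. The logistic curve took 1% of calls as wrong. No replicate samples exist within a day, so no p-value was computed. Coordinates are 1-based. The size rule, the runs and the logistic fit were tested on simulated data, and the matching was checked on the real scores. The other steps had no such test. Alternatives covered the matching, window, size rule, filter, run length, series, control and cell quality; those with pairs within 2 points, matched X cells and present-series d0 cells outside the window or in the curve were chosen after seeing the data. Python 3.11.15 was used with numpy 2.4.6, pandas 2.3.3, scipy 1.17.1 and matplotlib 3.10.9.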

Additional observations from a re-analysis of the deposited data

How the results depend on the processing

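Counts of bins are given as earlier then later, beside 777 and 1331 in the report, and the DNA in runs likewise, beside 33.68 and 49.76 Mb. Without matching, bins were 456 and 2073 and runs held 19.92 and 97.04 Mb. With a size rule of 0.2, bins were 1842 and 2971 and runs held 84.4 and 146.88 Mb; with 0.4, bins were 356 and 628 and runs held 16.4 and 21.76 Mb. Later runs of at least 3 bins held 76.96 Mb, and runs of at least 10 bins (7 and 13) held 6.88 and 13.12 Mb. Smaller groups gave larger counts. With d0 cells of the present series (8 pairs), bins were 4215 and 4321 and runs held 210.4 and 212.96 Mb. With the 12 d2 cells of the smaller control, bins were 2265 and 2054 and runs held 110.08 and 78.8 Mb, and with the 23 of the larger control, earlier bins were 1169. Of the called bins 36.9% were earlier in the report, 18.03% without matching, 49.4% with present-series d0 cells and 52.4% with the smaller d2 control, so these data do not fix the balance of directions. Chromosome X windows earlier on CBA were 20 with matched cells, beside 6. The other alternatives (window of 45 to 65%, no limit on the match, bins called in at least 80%, earlier-series d0 cells, pairs within 2 points, and leaving out cells that did not follow the profile or that the authors' filters marked) left each count within 1.5 times of its value. All 20 named regions kept their direction in each alternative, and of 110 values each, 7 for E regions, all with present-series d0 cells, and 2 for L regions missed the 30-point rule. No paired analysis was possible because cell numbers only name cells and the results come from no test. The number of cells, 35 a day, limits the precision.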
